A study of Homo sapiens with 18 samples.

Results

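Transcripts of 10 genes for subunits of voltage-gated calcium channels were examined in bulk RNA sequencing of human pancreatic progenitors. The genes were *CACNA1A*, *CACNA1C*, *CACNA1D*, *CACNA1H*, *CACNA2D1*, *CACNA2D2*, *CACNB1*, *CACNB2*, *CACNB3* and *CACNB4*. They were chosen by name, with earlier results from the same table in view, among them the authors' comparisons of matrices. All 10 were found by symbol among the 21944 genes that the authors' table lists at any time. All 10 were listed at all 3 times, as were 18672 of the 21944. The progenitors were derived from human embryonic stem cells, dissociated with accutase on day 19 of differentiation and plated on fibronectin (FN), a matrix protein on which the cells spread, or on LN411, a laminin to which cells adhere weakly. Cells were collected after 3, 6 or 24 h, with 3 samples in each of the 6 groups and 18 samples in all. The sample labels name the HUES4 line, while their growth protocol and the paper name NGN3-GFP, a reporter line for *NEUROG3* made from SA121. All samples, FN included, were replated, so that no group shows the cells before dissociation.

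A voltage-gated calcium channel opens when the cell membrane depolarises and lets calcium into the cell. Its pore is a single large protein, and the type of pore sets the voltage at which the channel opens and the drugs that block it. The alpha2delta and beta subunits are auxiliary. With many types of pore, though not all, they help bring the pore to the cell surface and tune its gating. In the endocrine pancreas, calcium entry through these channels triggers the release of insulin from beta cells.

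The level used here is the mean normalized count, which the authors obtained by dividing each sample's count for a gene by a size factor and averaging over all 18 samples. It is 1 value per gene, in which both matrices and all 3 times are mixed, and the table repeats it at each time with a largest relative gap of 4.89e-07. Whether a subunit differed between LN411 and FN, or between times, was therefore not tested. The spread between replicates and the depth of single libraries are unknown, and no level below carries an error. In bulk samples, fewer cells of a type and less RNA per cell cannot be told apart. Since a long transcript yields more fragments than a short one, levels of genes were compared after division by length. Where mean normalized counts are given as a range over genes, they are not divided, and their order also reflects length. The length was that of the merged exons of all transcripts annotated for the gene. For some members, a second value per kilobase of the longest transcript or the longest coding sequence is also given.

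The mean normalized counts of the 10 genes differed widely. The highest was 2791 for *CACNA2D1* and the lowest 31.9 for *CACNB4*. Their sum of 6802, not divided by length, was 0.0128% of the total of 53217584 over all listed genes. The 10 genes are among 21944 that are listed. Per kilobase of merged exons, the levels ran from 304 for *CACNA2D1* to 0.886 for *CACNB4*, against a median of 194 over 15355 listed protein-coding genes. Only *CACNA2D1* and *CACNB3*, 2 of the 10, lay above that median. In the members' own order, the middle fell between *CACNB2* and *CACNB1*, with a median level of 31.4 and a median percentile of 24.2 among those protein-coding genes, on which all percentiles of levels below are also based.

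**Figure D1:**
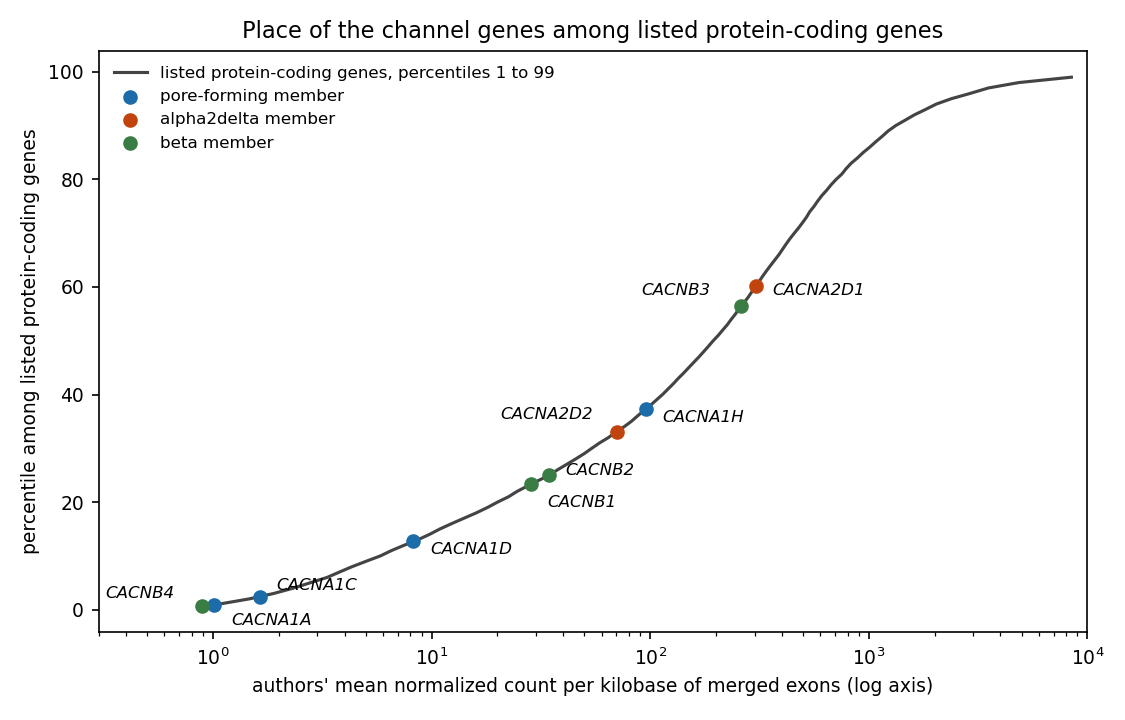
The line gives the level of listed protein-coding genes, as the authors' mean normalized count per kilobase of merged exons on a log axis, against their percentile, and each point is 1 of the 10 channel genes coloured by subunit class. *CACNA2D1* and *CACNB3* lie above the 50th percentile, while *CACNA1C*, *CACNA1A* and *CACNB4* lie below the 3rd on this scale, and between percentiles 4.05 and 7.41 with longest transcripts.

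Among the pore-forming genes, *CACNA1H* had by far the most transcript. *CACNA1H* encodes a T-type pore, which opens at voltages close to rest. Its mean normalized count was 824, its level per kilobase 95.5 and its percentile 37.3. With the longest coding sequence as the length, its percentile was 25.6. The gene lies on chromosome 16 of GRCh38 from 1153106 to 1221771 on the plus strand. *CACNA1H* made up 67.3% of the summed level per kilobase of the 9 pore-forming genes listed, and 61.0% with the longest transcript as the length.

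*CACNA1D* encodes an L-type pore that opens at lower voltages than the L-type pore of *CACNA1C* and is found in pancreatic islets. It lies on chromosome 3 from 53328963 to 53813733 on the plus strand and had a mean normalized count of 158. Its level per kilobase was 8.25, at percentile 12.7, and that of *CACNA1H* was 11.6 times higher. With the longest transcript as the length, the ratio of *CACNA1H* to *CACNA1D* was 5.96. The exons of *CACNA1D* share 1399 bases, or 7.29% of their length, with those of *CHDH* on the opposite strand. The mean normalized count of *CHDH* was 2137, and the paper names a library kit that does not mark the strand, so that reads from the shared bases cannot be assigned to either gene. The paper names the gene counts of STAR. Whether reads from the shared bases were counted for *CACNA1D*, for *CHDH* or for neither was not tested. Per kilobase of exons outside those of other genes, the level of *CACNA1D* was 8.90, at percentile 12.1.

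*CACNA1C* encodes the L-type pore of heart and smooth muscle, which is also found in beta cells. It lies on chromosome 12 from 1970772 to 2697950 on the plus strand. Its mean normalized count was 41.9 and its level per kilobase 1.64, at percentile 2.41. *CACNA1A* encodes the P/Q-type pore of nerve endings and lies on chromosome 19 from 13206442 to 13633025 on the minus strand. It had a mean normalized count of 43.8 and a level per kilobase of 1.02, at percentile 0.935. The order of *CACNA1C* and *CACNA1A* turned with the length used. *CACNA1A* has 43.1 kb of merged exons but a longest transcript of 8.66 kb, and per kilobase of longest transcript its level was 5.06, at percentile 7.41, above the 3.01 of *CACNA1C*, at percentile 4.05.

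The other pore-forming genes were in the same low range. Of 6 such genes outside the 10, 5 were listed, and *CACNA1S*, the pore of skeletal muscle, was not. *CACNA1F*, known as an L-type pore of the retina, had a level of 16.3 per kilobase and *CACNA1B*, the N-type pore, one of 8.91, both above *CACNA1D* on this scale. Per kilobase of longest transcript, *CACNA1D* at 16.8 lay between *CACNA1F* at 18.6 and *CACNA1B* at 9.01. The T-type pores *CACNA1I* and *CACNA1G* had 5.83 and 3.89 per kilobase of merged exons, and the R-type pore *CACNA1E* had 0.626, the lowest of the family. By type, the 3 T-type genes together held 74.1% of the summed level per kilobase and the 3 listed L-type genes 18.4%. With the longest transcript as the length, these shares were 67.6% and 23.4%.

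**Figure D2:**
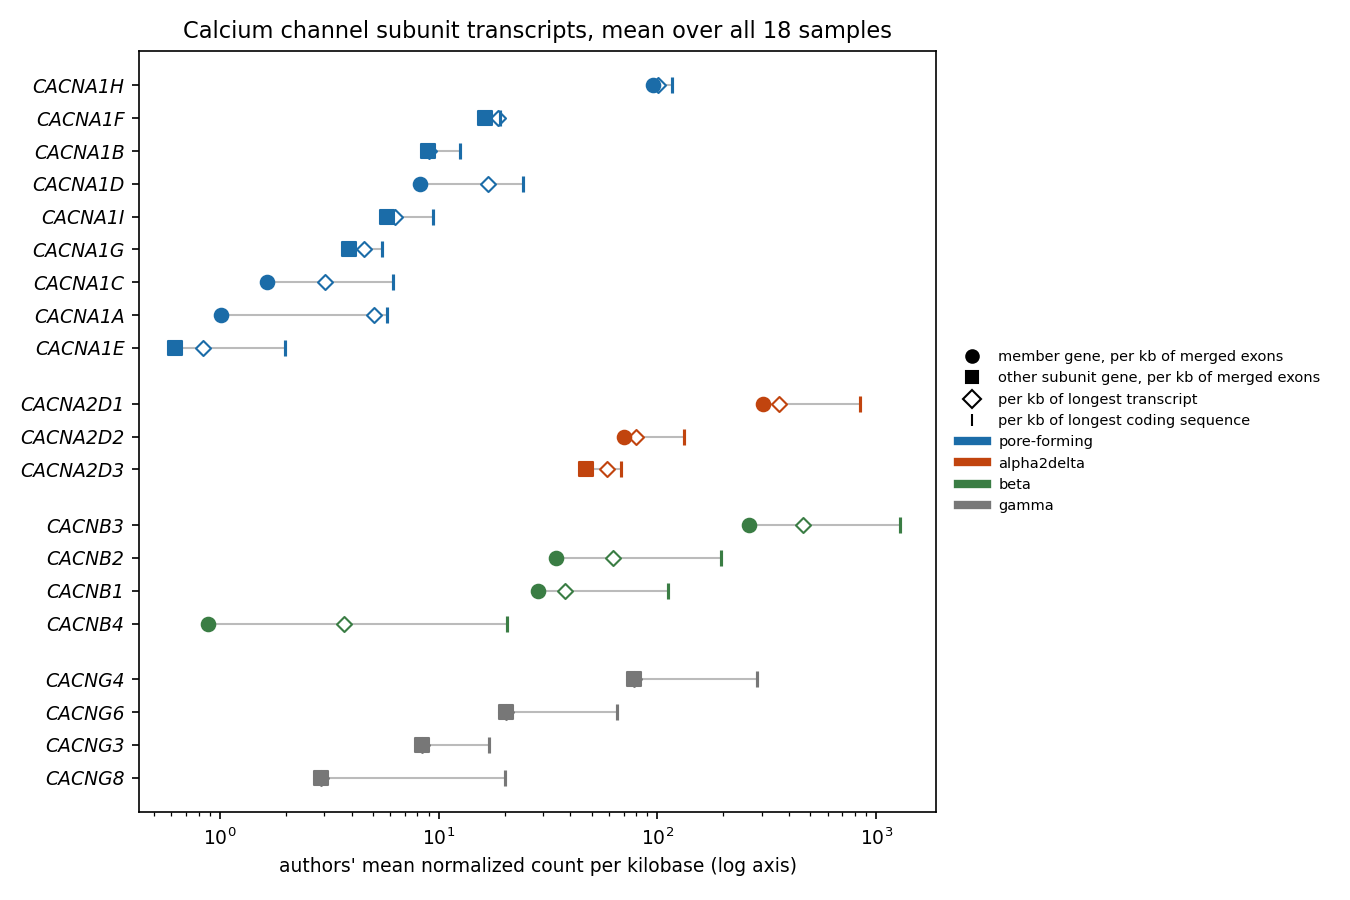
Each row is 1 of the 20 listed subunit genes, and the log axis gives the authors' mean normalized count over all 18 samples per kilobase, with circles for the 10 members and squares for other subunits, divided by merged exons. Diamonds and ticks show the same counts divided by the longest transcript and the longest coding sequence, and the gap between marks is widest for *CACNB4*, at 0.886 against 20.4.

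*CACNA2D1* led the alpha2delta genes and, per kilobase of merged exons, all 10 members, while with longest transcripts and coding sequences *CACNB3* was higher. *CACNA2D1* encodes a subunit that binds the drug gabapentin and lies on chromosome 7 from 81946444 to 82443956 on the minus strand. Its level of 304 per kilobase was at percentile 60.1. None of its exon bases is shared with another annotated gene. *CACNA2D2* (chromosome 3, 50362613 to 50504244, minus strand) had a mean normalized count of 456 and a level per kilobase of 70.1, at percentile 33.1. The ratio of *CACNA2D1* to *CACNA2D2* was 4.34, and 4.49 per kilobase of longest transcript. *CACNA2D3*, outside the 10, had 47.3 per kilobase, more than 6 of the members (5 with longest transcripts), and *CACNA2D4* was not listed. *CACNA2D1* made up 72.2% of the summed level of the 3 listed alpha2delta genes.

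All 4 beta genes were listed. *CACNB3* (chromosome 12, 48813794 to 48828941, plus strand) had a mean normalized count of 1868 and a level per kilobase of 261, at percentile 56.5. Per kilobase of longest transcript its level was 464, at percentile 61.8. With merged exons, *CACNB3* made up 80.4% of the summed level of the class. *CACNB2* (chromosome 10, 18140424 to 18543557, plus strand), the main beta subunit of heart, had a mean normalized count of 385 and 34.4 per kilobase. *CACNB1* (chromosome 17, 39173453 to 39197702, minus strand), the beta subunit of skeletal muscle, had a mean normalized count of 201 and 28.4 per kilobase. The levels of *CACNB2* and *CACNB1* were close, with a ratio of 1.21, or 1.66 per kilobase of longest transcript. *CACNB4* (chromosome 2, 151832771 to 152099167, minus strand), a beta subunit of the brain, had the lowest mean normalized count of the 10 genes, 31.9, and the lowest level per kilobase of merged exons, 0.886. Its 74 annotated transcripts give 35.96 kb of merged exons, a longest transcript of 8.60 kb and a longest coding sequence of 1.56 kb. Per kilobase of longest transcript its level was 3.71, at percentile 5.23 and above that of *CACNA1C*, and per kilobase of longest coding sequence it was 20.4, above both *CACNA1C* at 6.20 and *CACNA1A* at 5.82. *CACNB3* was 295 times higher than *CACNB4* per kilobase of merged exons, 125 times per kilobase of longest transcript and 63.0 times per kilobase of longest coding sequence.

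**Figure D3:**
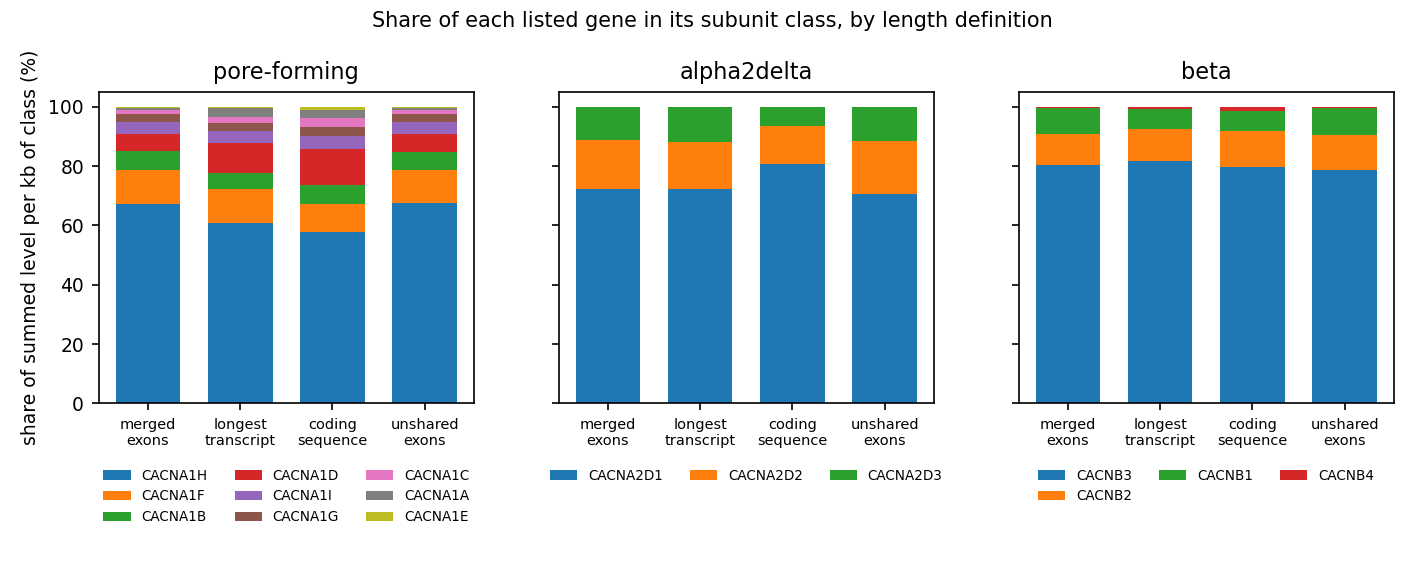
Bars give the share, in percent, of each listed gene in the summed level per kilobase of its class, for pore-forming, alpha2delta and beta genes and for 4 definitions of length. *CACNA1H*, *CACNA2D1* and *CACNB3* hold the largest share of their class under each definition, from 57.9% for *CACNA1H* with coding sequences to 81.6% for *CACNB3* with longest transcripts.

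Auxiliary genes had higher summed levels than pore-forming genes. Of the pore-forming sum, 67.3% came from the T-type gene *CACNA1H*. Which pores the auxiliary subunits pair with in these cells was not tested. The summed level per kilobase was 142 for the 9 pore-forming genes, 422 for the 3 alpha2delta genes and 325 for the 4 beta genes. The ratio of alpha2delta to pore-forming genes was 2.97, and 3.04 with longest transcripts. For beta to pore-forming genes, the ratio was 2.29, and 3.46 with longest transcripts. Between the alpha2delta and beta classes, the order turned with the length, at a ratio of 1.30 with merged exons and 0.878 with longest transcripts. The same held for their leading genes, as the ratio of *CACNB3* to *CACNA2D1* was 0.858 with merged exons and 1.29 with longest transcripts.

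The 8 gamma genes, a further class of related membrane proteins, had 4 listed. *CACNG4* was the highest of them at 78.3 per kilobase, more than 7 of the 10 members (6 with longest transcripts). It encodes a protein best known as a partner of AMPA receptors. *CACNG6*, *CACNG3* and *CACNG8* had 20.4, 8.37 and 2.91 per kilobase, and *CACNG1*, *CACNG2*, *CACNG5* and *CACNG7* were not listed. A gene that is not listed has no value here, and the lowest mean normalized count in the table was 2.704.

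Proteins that bind the channels were taken as a list of 11 genes, of which 10 were listed. The 3 calmodulin genes, whose product senses calcium at the inner side of the pore, had mean normalized counts from 21114 for *CALM3* to 37281 for *CALM2* and lay between percentiles 97.1 and 98.2. Among the RGK GTPases, which inhibit the channels, *REM2* had a mean normalized count of 732. Its level of 327 per kilobase, at percentile 62.0, was above that of *CACNA2D1*, while per kilobase of longest coding sequence it was below it, at 718 against 844. *GEM* and *RRAD* had 88.9 and 41.1 per kilobase, and *REM1* was not listed. The STAC adaptors of L-type channels had levels from 2.90 per kilobase for *STAC2* to 26.3 for *STAC3*, with 22.2 for *STAC*. *CABP1*, a relative of calmodulin, had 8.41 per kilobase.

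The label of pancreatic progenitors was checked against marker genes. The 8 progenitor markers reported here were all listed, with mean normalized counts from 3040 for *NKX6-1* to 135959 for *GP2*, and *PDX1* had 12933. Both pluripotency markers, *POU5F1* and *NANOG*, were not listed. All 8 endocrine markers were listed, though *INS* at 24 h alone and *GCG* at 6 and 24 h. Their mean normalized counts ran from 8.32 for *INS* to 4312 for *CHGA*. *NEUROG3* had 451, *NKX2-2* 110, *NEUROD1* 71.2 and *GCG* 16.3. Of 8 markers of neurons, muscle and heart, 7 were listed, at or below percentile 24.7 per kilobase of merged exons. On the same scale, the progenitor markers lay between percentiles 81.6 and 99.8 and the endocrine markers between 11.3 and 90.7. The endocrine markers *GCG*, *NEUROD1* and *INS* also lay below percentile 24.7. The endocrine list thus overlapped in level with that of neurons, muscle and heart. The highest of the 7 listed markers of neurons, muscle and heart was *SNAP25*, an exocytosis gene that endocrine cells also express, with a mean normalized count of 680. Its percentile was 24.7 with merged exons, 34.0 with the longest transcript and 60.1 with the longest coding sequence. How much of the channel transcripts came from progenitors and how much from endocrine cells in the same libraries was not tested.

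Sequences around the annotated starts of 9 members were taken from RefSeq on GRCh38.p14, as windows of 300 bases with 250 before and 50 after the start. No such window was used for *CACNA1H*. The 9 genes had 19 windows, since *CACNB4* has 5, *CACNB2* has 4, *CACNB3* has 3 and *CACNA2D2* has 2. The windows were searched for CG, which reads the same on both strands and occurs in 96.0% of 35116 windows in the table, and for TATAAA on either strand, found in 11.5% of them and in 7.24% of the windows of listed protein-coding genes. TATAAA was in 0 of the 19 windows, which says only that these letters are not there. CG occurred from 2 to 56 times in a window, against a median of 24 over 17837 windows of listed protein-coding genes. Among the 5 members with a single window, CG occurred 21 times for *CACNA1A*, 28 for *CACNB1*, 29 for *CACNA2D1*, 54 for *CACNA1C* and 56 for *CACNA1D*. In the same order, their levels per kilobase of merged exons were 1.02, 28.4, 304, 1.64 and 8.25. A link between CG pairs and level was not tested. The windows of *CACNA1A*, *CACNA1C* and *CACNA1D* lie inside the gene spans given above, not at their outer ends. A single window means only that RefSeq gave 1 start for the gene here. The windows of *CACNA2D1* and *CACNA1C*, chosen after their values were seen, are shown as examples. Both hold more CG pairs than the median of 24, and those of *CACNA1A* and *CACNB1* hold fewer than either. The window of *CACNA2D1* (chr7:82443907-82444206, minus strand) holds 29 CG pairs, at percentile 65.2, and that of *CACNA1C* (chr12:2052737-2053036, plus strand) holds 54, at percentile 99.5. Both are written 5′ to 3′ along the gene, with CG pairs in capitals.
CACNA2D1: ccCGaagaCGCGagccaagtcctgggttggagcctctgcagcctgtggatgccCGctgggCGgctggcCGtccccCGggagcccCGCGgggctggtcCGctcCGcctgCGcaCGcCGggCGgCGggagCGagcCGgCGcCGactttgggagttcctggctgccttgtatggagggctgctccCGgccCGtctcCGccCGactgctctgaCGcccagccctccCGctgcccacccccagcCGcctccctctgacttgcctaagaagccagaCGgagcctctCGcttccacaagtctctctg
CACNA1C: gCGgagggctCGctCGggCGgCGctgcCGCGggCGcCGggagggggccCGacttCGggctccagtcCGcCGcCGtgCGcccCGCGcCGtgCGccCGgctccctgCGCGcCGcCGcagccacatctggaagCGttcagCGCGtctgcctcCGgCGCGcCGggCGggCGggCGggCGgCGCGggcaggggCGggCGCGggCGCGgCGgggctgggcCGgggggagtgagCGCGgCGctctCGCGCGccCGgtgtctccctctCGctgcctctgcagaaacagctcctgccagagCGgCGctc
The level per kilobase was 304 for *CACNA2D1* and 1.64 for *CACNA1C*. It was 1.02 for *CACNA1A*, whose window has the fewest CG pairs among the 5 members with a single window. Which start sites the cells used was not measured.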

How the data were processed

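Polyadenylated RNA from 18 samples was sequenced on an Illumina instrument. According to the paper's methods and the labels, the authors aligned reads with STAR 2.7.2d to GRCh38.p13, counted them per gene with the GENCODE v32 annotation and normalized them with DESeq2 1.34.0. The deposited mean normalized count, a signal with 1 value per gene, is the authors' average over the whole set of samples. The deposited table also holds 5 columns of the authors' own comparisons of LN411 with FN at each time (fold change, standard error, statistic, p-value and adjusted p-value), which were not used. It holds 0 columns of values per sample, so that the planned test on counts was not run and the depth of each library is unknown.

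Listed genes numbered 20233 at the first time, 21140 at the second and 19569 at the last, with 18672 shared by all times. Lengths and positions came from GENCODE v44 on GRCh38, the same assembly with a newer annotation, matched by Ensembl identifier for 99.6% of genes. Exons added since v32 lower a level per kilobase of merged exons. Percentiles were taken over listed protein-coding genes. Length and percentile functions were tested on simulated intervals. Named genes were the members, the other subunits, the binding proteins and the marker lists, and *CHDH*, chosen after its values were seen for its overlap. One marker result is not reported here. The members and lists were chosen with earlier results of these data known. The software was pandas 2.3.3 and numpy 2.4.6 under Python 3.11.15, with matplotlib 3.10.9 for plots.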

Additional observations from a re-analysis of the deposited data

How the results depend on the processing

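No paired analysis was possible because the values come from no test and the table holds no column for a single sample. For the same reason the planned count test, its other normalization and filters, the replicate block and leaving out replicates were not run, and coding length from a protein table was replaced by the longest annotated coding sequence. That length, and exons outside those of other genes, were chosen after seeing the data. With no spread between samples, every shift counts as a move. The median level of the 10 genes moved from 31.4 per kilobase to 50.4 with longest transcripts, 114 with coding sequences and 34.6 with unshared exons. Their median percentile moved from 24.2 to 30.4 without division by length, 38.0 among all listed genes, 25.4 with coding sequences and 23.9 with unshared exons. With longest transcripts, coding sequences and unshared exons in turn, the class share was 61.0%, 57.9% and 67.4% for *CACNA1H*, 72.1%, 80.8% and 70.5% for *CACNA2D1*, and 81.6%, 79.7% and 78.8% for *CACNB3*. Of the 10 genes, 5 kept their place in the order with longest transcripts, 3 with coding sequences, 10 with unshared exons and 8 without division by length.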

Other observations

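Some genes of the lists appeared in the table at some times only. *INS*, with a mean normalized count of 8.32, was listed at 24 h alone, and *GCG*, with 16.3, at 6 and 24 h. *STAC2*, with 9.94, was listed at 3 and 6 h, and the neuronal marker *RBFOX3*, with 7.19, at 3 h alone. The 10 channel genes, with the lowest at 31.9, were listed at each of the 3 times. So were 18672 of the 21944 genes listed at any time, among them the other subunit *CACNA1E* at 13.8. The 10 were chosen with this listing in view, so their presence at all times is no result about them. What decides whether a gene is listed at a time is not given in the sources used here.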
